A study of Mus musculus with 30 samples.

Results

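Ndrg1 and 9 further hypoxia-inducible genes were followed in mHypoA-2/12 cells, an immortalised line from adult mouse hypothalamus, after exposure to cannabidiol (CBD), a non-intoxicating compound of Cannabis sativa. The 10 genes (Ndrg1, Hif1a, Egln1, Egln3, Vegfa, Slc2a1, Pdk1, P4ha1, Bnip3 and Ankrd37) were picked by symbol as well-known targets or components of the hypoxia pathway, and are 10 of 56941 gene identifiers counted in each library. The question asked of them was whether hypoxia-inducible genes other than Ndrg1 fall with CBD, at which dose and at which time. All 10 symbols matched a single Ensembl identifier.

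The study holds 30 libraries of 3′ end sequencing (QuantSeq), 3 in each of 10 groups. Cells received vehicle or CBD at 0.325, 0.75, 1.5 or 3 µM for 6 h or 24 h, with a vehicle group of its own at each time. All groups, vehicle included, were in DMEM with GlutaMAX containing 0.1% DMSO, the solvent of CBD. All libraries come from the same line, no label says that replicates are separate cultures, and the p-values therefore measure the spread between these libraries. In bulk RNA, fewer cells expressing a gene and less of its RNA per cell cannot be told apart.

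Libraries held between 1839621 and 4420675 reads on genes, and 17.7 to 22.2% of reads fell outside genes. Vehicle library A3 of 6 h stood apart from its group. It held 3574833 reads against 1839621 and 1919498. Its chi-square per gene against the other 2 vehicle libraries was 10.7 and 9.69, compared with 2.15 between those. Over all 30 pairs of replicates the value ran from 2.13 to 10.7, and in other groups it reached 9.31 (A16 against A17, 3 µM at 24 h). The members at 6 h are therefore also given without A3. Of 8 neuronal markers, Tubb3 averaged 49.3 and Map2 23.3 CPM (counts scaled to a common library size), whereas Rbfox3, Snap25 and Syp, which mark mature neurons and their synapses, averaged under 1 CPM. The summed level of the 8 markers was 105 to 111 CPM in vehicle and 84.5 to 122 CPM in CBD at 6 h, and 4 mesenchymal markers (Col1a1, Col1a2, Vim, Acta2) summed to 7132 to 9307 CPM over all libraries. The astrocyte marker Aqp4, the oligodendrocyte marker Sox10 and the endothelial marker Cldn5 had no reads.

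In normal oxygen, prolyl hydroxylases mark the hypoxia-inducible factor (HIF) alpha subunits, and the von Hippel-Lindau ubiquitin ligase then removes them. When oxygen, iron or oxoglutarate is short, the alpha subunit persists, pairs with ARNT and switches on genes for glucose uptake, glycolysis, blood vessel growth, mitophagy and collagen processing. Ndrg1 encodes a stress-responsive cytoplasmic protein that is strongly induced by hypoxia and by iron chelation, and that also responds to regulators other than HIF, among them Myc and Egr1. In the hypothalamus the pathway has been linked to nutrient and glucose sensing. HIF is controlled mainly at the protein level, so Hif1a mRNA is not itself a measure of its activity.

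The core of a HIF binding site reads ACGTG or GCGTG. RefSeq promoter windows of 300 bases (250 before and 50 after a transcription start, build GRCm38.p6) were found for 9 of the 10 genes, 11 windows in all, and the exception was Ndrg1. The letters ACGTG or GCGTG, on either strand and with overlapping matches counted, occurred in 9 of the 11 windows (81.8%), compared with 43.8% of all 32851 windows, and at least 2 matches occurred in 8 of the 11 windows (72.7%), compared with 20.6% of all. Such a match is a description of the letters and not evidence of a bound site. Both ACGTG and GCGTG contain CG, and the comparison with all windows was not matched for CG content. The member windows held from 2 CG (a window of Pdk1) to 60 CG (Egln1). Of the tested genes not called with CBD at 6 h, Hif1a, Egln1, Vegfa, Pdk1, Slc2a1, P4ha1 and Bnip3 each had a window with 2 or more matches. The windows of Slc2a1, P4ha1 and Bnip3 are shown as examples, although the Bnip3 transcript was too weakly counted to exclude a fall like that of Ndrg1. They lie at chr4:119108495-119108794 (plus strand), chr10:59323046-59323345 (plus strand) and chr7:138909457-138909756 (minus strand), are written 5′ to 3′ on the strand of the gene, and carry the matches in capitals.
Slc2a1: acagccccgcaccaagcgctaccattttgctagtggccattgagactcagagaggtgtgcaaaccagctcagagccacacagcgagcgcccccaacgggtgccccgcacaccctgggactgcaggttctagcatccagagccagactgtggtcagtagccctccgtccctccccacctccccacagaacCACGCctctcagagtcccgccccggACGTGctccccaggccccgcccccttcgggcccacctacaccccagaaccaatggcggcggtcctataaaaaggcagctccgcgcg
P4ha1: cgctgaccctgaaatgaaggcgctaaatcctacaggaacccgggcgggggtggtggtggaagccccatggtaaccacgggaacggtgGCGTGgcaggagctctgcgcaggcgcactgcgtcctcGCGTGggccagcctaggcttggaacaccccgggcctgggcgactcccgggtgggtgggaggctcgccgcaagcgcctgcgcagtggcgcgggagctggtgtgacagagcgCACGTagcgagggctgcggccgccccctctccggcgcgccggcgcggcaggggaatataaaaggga
Bnip3: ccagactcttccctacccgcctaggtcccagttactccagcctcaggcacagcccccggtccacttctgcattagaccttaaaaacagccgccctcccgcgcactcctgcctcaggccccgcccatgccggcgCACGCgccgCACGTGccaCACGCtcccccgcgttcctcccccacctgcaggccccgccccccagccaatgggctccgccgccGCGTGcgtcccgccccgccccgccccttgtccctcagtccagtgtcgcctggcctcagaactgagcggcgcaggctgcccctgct
The 2 matches of Slc2a1 began 61 and 36 bases before the start, those of P4ha1 began 163, 126 and 16 bases before it, and the 5 of Bnip3 included an overlapping pair, 1 on each strand, at 108 and 107 bases. Of the 2 windows of Vegfa, the upstream one, at chr17:46032328-46032627 (minus strand), held no match.

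Ndrg1 lies at chr15:66929318-66969640 on the minus strand (GRCm38) and had 7386 reads over the 30 libraries. In 6 h vehicle its level was 128, 172 and 99.7 CPM. In cells given 0.325 µM CBD for 6 h it was 83.5, 63.9 and 52.0 CPM. At 0.75 µM it was 83.4, 85.9 and 66.6 CPM, at 1.5 µM 68.4, 79.6 and 69.3 CPM, and at 3 µM 68.6, 77.2 and 85.5 CPM. Every CBD library of 6 h was thus below every vehicle library, and the 4 dose groups overlapped each other. The group means were 133 ± 36.6 CPM in vehicle (SD, n = 3) and 73.7 ± 10.5 CPM over the 12 CBD libraries (SD).

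Ndrg1 fell in the comparison of the mean of the 4 doses with vehicle at 6 h, with a log2 fold change of -0.85 (SE 0.143, 95% interval -1.15 to -0.56) and an FDR of 0.00476 by edgeR's quasi-likelihood test. It was the only 1 of 8 tested members called at an FDR below 0.1, while 0.749% of 12012 genes were called in that comparison. The fall was larger without vehicle library A3 (-1.03, FDR 0.000105), and without vehicle library A2, the highest in Ndrg1, it was -0.62 and lost its call (FDR 0.115). Only 1.45% of genes tested at 6 h had all CBD libraries on one side of all vehicle libraries, and Ndrg1 was the only member among them.

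By dose, the log2 fold change of Ndrg1 at 6 h was -0.999 at 0.325 µM (SE 0.192), -0.76 at 0.75 µM (SE 0.189), -0.87 at 1.5 µM (SE 0.191) and -0.78 at 3 µM (SE 0.19). The FDR was 0.0333 at the lowest dose and 0.165, 0.103 and 0.137 at the higher doses, so that only 0.325 µM passed 0.1 on its own. The call at 0.325 µM did not hold when only its 6 libraries were fitted (FDR 0.575), and without vehicle library A3 all of the higher doses passed (FDR 0.00912, 0.00423 and 0.00768). No member other than Ndrg1 was called at any single dose, by edgeR or DESeq2, where 0.2%, 0.0749%, 0.0999% and 0.05% of genes were called in order of rising dose. A difference in Ndrg1 among the 4 doses was not detectable at this depth, and its slope was 0.05 per doubling of dose (95% interval -0.07 to 0.17). Of all genes, 0% were called for a slope and 0% for any difference among doses at 6 h, where 513 genes had an unadjusted p below 0.05 for the slope and 452 for any difference. DESeq2 called no member in either test.

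**Figure D1:**
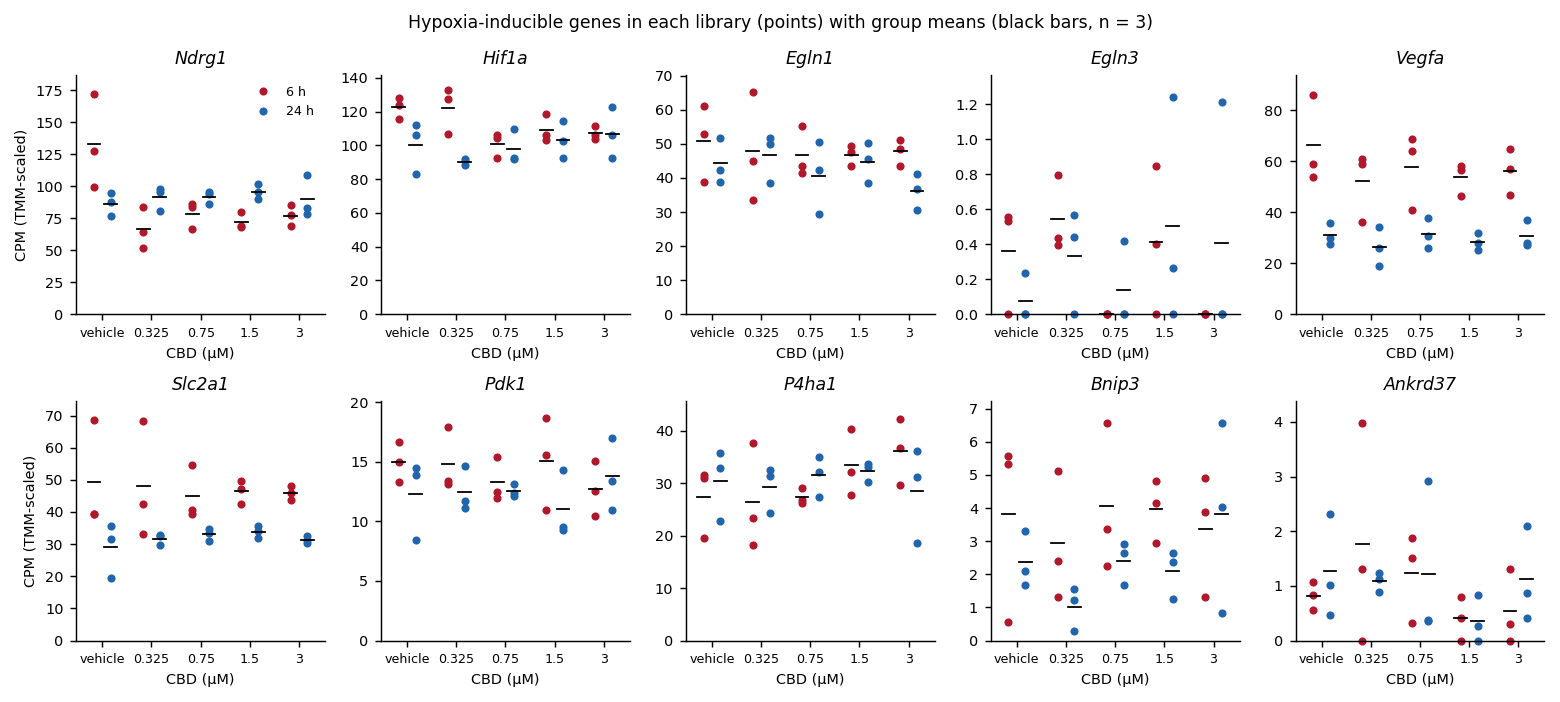
Level of each of the 10 genes in CPM (vertical axis, starting at 0) by CBD dose in µM (horizontal axis), red for 6 h and blue for 24 h, with a point for each library and a black bar for the mean of 3. In the Ndrg1 panel the 3 vehicle points of 6 h (99.7 to 172 CPM) sit above all 12 CBD points of 6 h (52.0 to 85.9 CPM), and in every other panel tested at 6 h the vehicle and CBD points overlap.

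Hif1a, the oxygen-regulated alpha subunit, lies at chr12:73901375-73947530 and had 8863 reads. Its 6 h vehicle libraries were at 116, 128 and 124 CPM, and its 12 CBD libraries ran from 92.5 through a median of 106 to 133 CPM. Of the 12 CBD libraries, 9 were below all vehicle libraries and 1 was above them. The mean of the doses differed from vehicle by -0.16 (log2, SE 0.108, 95% interval -0.39 to 0.06, FDR 0.663), which did not pass the test, and by -0.151 without A3 (FDR 0.673). The lowest estimate was at 0.75 µM, with -0.28 (SE 0.138, FDR 0.644).

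The prolyl hydroxylases Egln1 and Egln3 act as the oxygen sensors of the pathway, and Egln3 is itself a HIF target. Egln1 was at 38.9, 52.8 and 61.1 CPM in 6 h vehicle and at 33.5 to 65.2 CPM (median 46.3) in CBD. The log2 fold change of Egln1 was -0.12 (SE 0.168, FDR 0.866). It was 0.045 without A3 (FDR 0.953), -0.273 without A1 (FDR 0.667) and -0.101 without A2 (FDR 0.929). Egln3 was barely counted, with 22 reads over all 30 libraries, and was not tested. Its vehicle libraries of 6 h had 1, 1 and 0 reads, and the 3 reads that a count of 0 allows correspond to 0.679 to 1.63 CPM per library, a limit that covers counting error only.

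Vegfa, the secreted growth factor for blood vessels, had the largest difference among the members that did not pass. Its 6 h vehicle libraries were at 58.9, 53.9 and 86.1 CPM and the CBD libraries at 36.3 to 68.7 CPM (median 57.4). The groups overlapped, with 4 of 12 CBD libraries below all vehicle libraries. The log2 fold change was -0.29 (SE 0.173, 95% interval -0.65 to 0.06, FDR 0.601). It rested on library A3, the highest of the vehicle group, without which it was -0.04 (FDR 0.959). Without A1 it was -0.37 (FDR 0.548) and without A2 -0.42 (FDR 0.538).

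Slc2a1, the glucose transporter GLUT1, had vehicle levels of 39.5, 39.5 and 68.6 CPM and CBD levels of 33.1 to 68.4 CPM (median 44.8). Its log2 fold change was -0.12 (SE 0.186, FDR 0.887), and without A3 it was 0.23 (FDR 0.698), so that its direction depended on that library. Without A1 it was -0.25 (FDR 0.747) and without A2 -0.25 (FDR 0.79). Pdk1, a kinase of pyruvate dehydrogenase, had 15.01, 13.3 and 16.7 CPM in vehicle and 10.5 to 18.7 CPM (median 13.3) in CBD. The difference in Pdk1 was -0.12 (SE 0.222, FDR 0.91). It was -0.025 without A3 (FDR 0.986), -0.124 without A1 (FDR 0.925) and -0.192 without A2 (FDR 0.881).

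P4ha1, a catalytic subunit of the collagen prolyl hydroxylase, was at 19.5, 30.9 and 31.7 CPM in vehicle and at 18.1 to 42.3 CPM (median 29.4) in CBD. Its log2 fold change was 0.14 (SE 0.202, FDR 0.874). The sign depended on the vehicle library left out, with 0.275 without A3 (FDR 0.69) and -0.035 without A1, its lowest (FDR 0.976). Its slope at 6 h was 0.16 per doubling of dose (95% interval 0.005 to 0.311), with an FDR of 0.996. The group at 3 µM held 36.7, 42.3 and 29.6 CPM, and the group at 0.325 µM held 23.5, 18.1 and 37.6 CPM, so the lowest and highest doses overlapped.

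Bnip3, a mitophagy receptor of the outer mitochondrial membrane, and Ankrd37, a small ankyrin-repeat protein, were weakly counted. Bnip3 had 238 reads in all, with 10, 10 and 2 reads in the 6 h vehicle libraries, and its log2 fold change of 0.05 carried an SE of 0.551, so that its interval of -1.09 to 1.18 covered sizeable changes of either sign. Without A3 it was -0.59 (FDR 0.708), without A1 0.48 (FDR 0.881) and without A2 0.44 (FDR 0.907). Ankrd37 had 81 reads, 0 to 10 in each library, and was not tested. The 3′ end of Ankrd37 overlaps Ufsp2 on the opposite strand, which had 5443 reads, and the strand setting of the counting is not given in the sources used here.

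In all, 1 of 8 tested members was called at 6 h and none of the other 7, of which 5 had estimates below 0 and 2 above. The median log2 fold change of those 7 was -0.12, and that of all genes tested was -0.02. Of these 7 intervals all but that of Bnip3 excluded a change as large as the -0.85 estimated for Ndrg1. That estimate is itself uncertain, with an interval that reached up to -0.56. The intervals of Vegfa (down to -0.65), Pdk1 (down to -0.58) and Bnip3 (down to -1.09) overlapped the interval of Ndrg1. Whether each of the 7 differed from Ndrg1 was not tested directly.

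**Figure D2:**
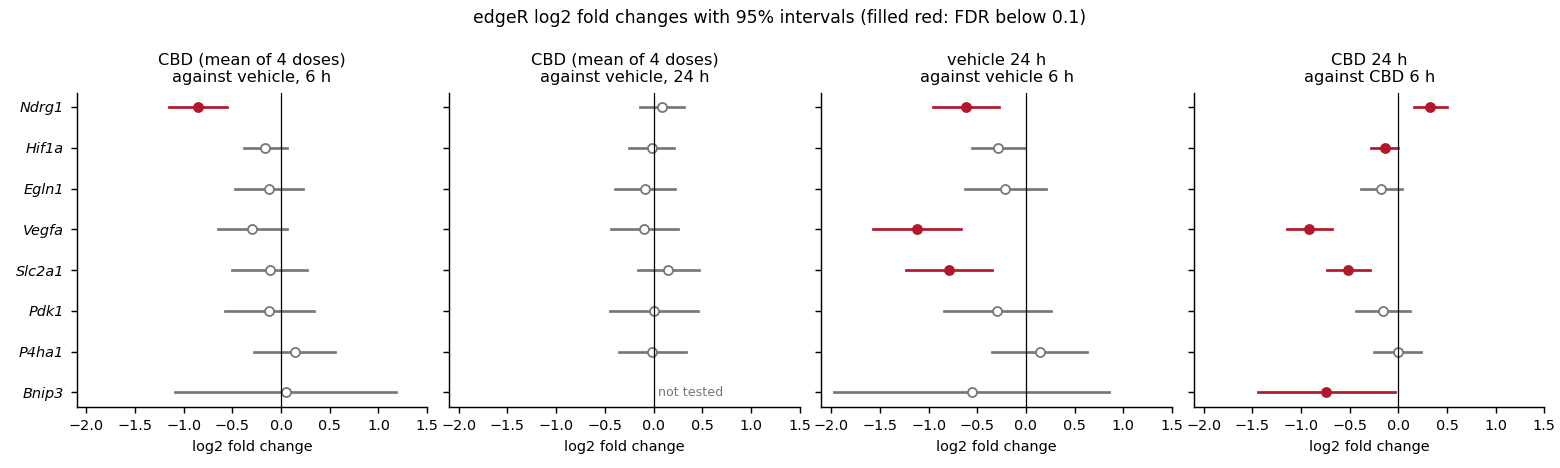
Log2 fold change (horizontal axis, points) with its 95% interval (lines) for the 8 tested genes in 4 comparisons, filled red where the FDR was below 0.1. Ndrg1 is at -0.85 in the first panel and at 0.09 in the second, and Vegfa and Slc2a1 are below 0 in both comparisons of 24 h with 6 h.

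At 24 h the Ndrg1 vehicle libraries were at 94.3, 87.5 and 76.8 CPM and the 12 CBD libraries at 78.5 to 108.8 CPM (median 94.8). The groups overlapped, and the mean of the doses differed from vehicle by 0.09 (log2, SE 0.111, 95% interval -0.14 to 0.32, FDR 0.941). None of 7 tested members was called at 24 h, with 0.107% of 12118 genes called, and none had an unadjusted p below 0.05. DESeq2 called none of them either. The other 6 estimates ran from -0.10 for Vegfa (SE 0.168) to 0.15 for Slc2a1 (SE 0.151). Each of these 6 took either sign as single vehicle libraries were left out. Without A29, Slc2a1, lowest in that library at 19.6 CPM, turned to -0.05 and Vegfa to 0.02. Bnip3, with 0.282 to 6.58 CPM, did not pass the filter on low counts at 24 h.

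No member was called at a single dose of 24 h, where 0.066%, 0.0825%, 0.0413% and 0.00825% of genes were called in order of rising dose. None was called for a slope over dose (3.13% of genes) or for any difference among doses (1.93%). The largest slope was that of Egln1, -0.09 per doubling (SE 0.0578, FDR 0.474), and the lowest FDR was that of Hif1a, with 0.08 per doubling (SE 0.0421, FDR 0.324). DESeq2 called no member in any of these tests, and no member had an unadjusted p below 0.05 for the slope. Hif1a was at 88.2, 90.9 and 91.9 CPM at 0.325 µM and at 123, 92.3 and 106 CPM at 3 µM, and vehicle was at 106, 83.2 and 112 CPM, so all of these overlapped. No member had all CBD libraries of 24 h on one side of all vehicle libraries, and 0.635% of genes did.

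The CBD difference in Ndrg1 was not the same at both times. The difference at 24 h minus that at 6 h was 0.94 (log2, SE 0.188, 95% interval 0.56 to 1.33, FDR 0.0331) in a fit of all 30 libraries, and Ndrg1 was the only 1 of 8 members called, with 0.235% of 12790 genes called. Without vehicle library A2 of 6 h it was 0.72 (FDR 0.177), without A29 of 24 h 0.95 (FDR 0.107) and without A30 of 24 h 0.87 (FDR 0.147), so the size held more closely than the call. The other 7 estimates ran from -0.18 for Bnip3 (SE 0.76) to 0.28 for Slc2a1 (SE 0.246), and both turned sign without A3, to 0.45 and -0.07.

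The vehicle groups differed between the times. Ndrg1 fell from 133 ± 36.6 CPM at 6 h to 86.2 ± 8.87 CPM at 24 h in vehicle (SD, n = 3 each), a log2 fold change of -0.61 (SE 0.168, FDR 0.00792). In CBD-treated cells it rose, from 73.7 ± 10.5 to 92.2 ± 8.92 CPM (SD, n = 12 each), by 0.33 (SE 0.0857, FDR 0.00179). The 6 h vehicle group was therefore the highest of the 10 groups in Ndrg1 and the 9 other group means ran from 66.5 to 95.7 CPM. Without library A2 the vehicle fall was -0.38 (FDR 0.135).

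Vegfa and Slc2a1 fell between 6 h and 24 h whether or not CBD was present. Vegfa fell by 1.12 in vehicle (log2, SE 0.224, FDR 0.000499) and by 0.91 in CBD (SE 0.114, FDR 3.31e-08), and its CBD libraries ran from 36.3 to 68.7 CPM at 6 h and from 18.8 to 37.9 CPM at 24 h. Slc2a1 fell by 0.79 in vehicle (SE 0.22, FDR 0.00912) and by 0.51 in CBD (SE 0.11, FDR 0.000221). Without library A3 the vehicle fall of Slc2a1 was -0.43 and lost its call (FDR 0.232). In all, 3 of 8 members were called lower in vehicle, where 26.7% of genes were called, and 4 lower and 1 higher in CBD, where 53.6% were called. Hif1a (-0.14, FDR 0.0877) and Bnip3 (-0.74, FDR 0.0770) were the other members lower in CBD, and these calls held in only 10 of 30 and 17 of 29 alternative fits. Time of culture, time in the medium and processing of the 24 h libraries cannot be told apart in these contrasts.

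The machinery around HIF showed no call for the mean of the doses. Of 16 components (alpha and beta subunits, hydroxylases, the von Hippel-Lindau complex and coactivators), 15 were tested and none was called at 6 h or 24 h by edgeR or DESeq2, nor had any an unadjusted p below 0.05. At 6 h they ran from -0.39 for Siah1a (SE 0.366), a ubiquitin ligase of the prolyl hydroxylases, to 0.50 for Arnt2 (SE 0.422), a partner of the alpha subunits, with a median of -0.01. Epas1, the second alpha subunit, was at -0.01 at 6 h (SE 0.224). At 24 h they ran from -0.24 for Arnt2 to 0.23 for Hif1an, the asparagine hydroxylase of the alpha subunits, with a median of -0.05. Epas1 had a slope over dose at 24 h of 0.44 per doubling (SE 0.122, FDR 0.0698). It was the only component called for that slope, where 3.13% of all genes were called. The call was lost when a covariate for reads outside genes was added, a fit that called 0 of all genes for the slope. Hif3a had 4 reads in all and was not tested.

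Of 14 glycolytic HIF targets, 13 were tested and none was called at either time by edgeR or DESeq2 (2 at 6 h and 1 at 24 h had an unadjusted p below 0.05), with medians of -0.08 at 6 h and -0.01 at 24 h. Ldha, which converts pyruvate to lactate, was at 559 to 582 CPM in 6 h vehicle and at 440 to 556 CPM in CBD, without overlap, but its log2 fold change of -0.23 (SE 0.0939) had an FDR of 0.36. Without A3 the lactate exporter Slc16a3 was called lower at 6 h (-0.516, FDR 0.0653). The range at 6 h was -0.35 for Gapdh to 0.51 for Aldoc. At 24 h it was -0.32 for Eno1 to 0.36 for Pfkfb3. Ldha (0.15 per doubling, SE 0.0408, FDR 0.0721) and Gpi1 (0.14, SE 0.0438, FDR 0.0945) were called for a slope over dose at 24 h. Of all genes, 3.13% were called for that slope. Both calls were lost with the covariate for reads outside genes, where 0 of all genes were called.

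Among 34 other HIF targets, 27 were tested at 6 h, and 1 fell and 1 rose, while 0.749% of all 12012 genes were called. Hmox1, the haem-degrading enzyme of the oxidative stress response, fell from 81.6 to 99.8 CPM in the vehicle libraries to 22.3 to 82.5 CPM in CBD (median 37.8), by 1.19 on the log2 scale (SE 0.191, FDR 0.00367). Pfkfb4, which sets the level of a glycolytic activator, rose from 2.67 to 4.72 CPM to 6.99 to 15.3 CPM, by 1.44 (SE 0.324, FDR 0.0437), without overlap. Without A3 they were at -1.25 and 1.63, both still called. Without vehicle library A2 Hmox1 was still called (-1.11, FDR 0.0430), while Pfkfb4 was at 1.26 and lost its call (FDR 0.223). Of the 27, 10 (37%) had an unadjusted p below 0.05, compared with 10.3% of all 12012 genes. Of these 10, 4 had estimates below 0 (Hmox1 among them) and 6 above (Pfkfb4 among them). The median of the 27 was -0.09. The list therefore held estimates in both directions.

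At 24 h, 28 of these 34 were tested and 1 was called, while 0.107% of all 12118 genes were called. Ppp1r3c, a glycogen-targeting phosphatase subunit, rose from 9.09 to 15.6 CPM in vehicle to 15.8 to 32.0 CPM in CBD, by 1.03 (SE 0.216, FDR 0.0566). The call was lost without vehicle library A29 (0.91, FDR 0.408), without A30 (0.90, FDR 0.513) and without A24 of 0.75 µM (0.98, FDR 0.108). Hmox1 was at -0.38 (SE 0.153, FDR 0.667) at 24 h, and the median was 0.09. The lowest estimate was -0.46 for Bhlhe40, a transcriptional repressor. Epo, the hormone of red cell formation, had no reads in any library.

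**Figure D3:**
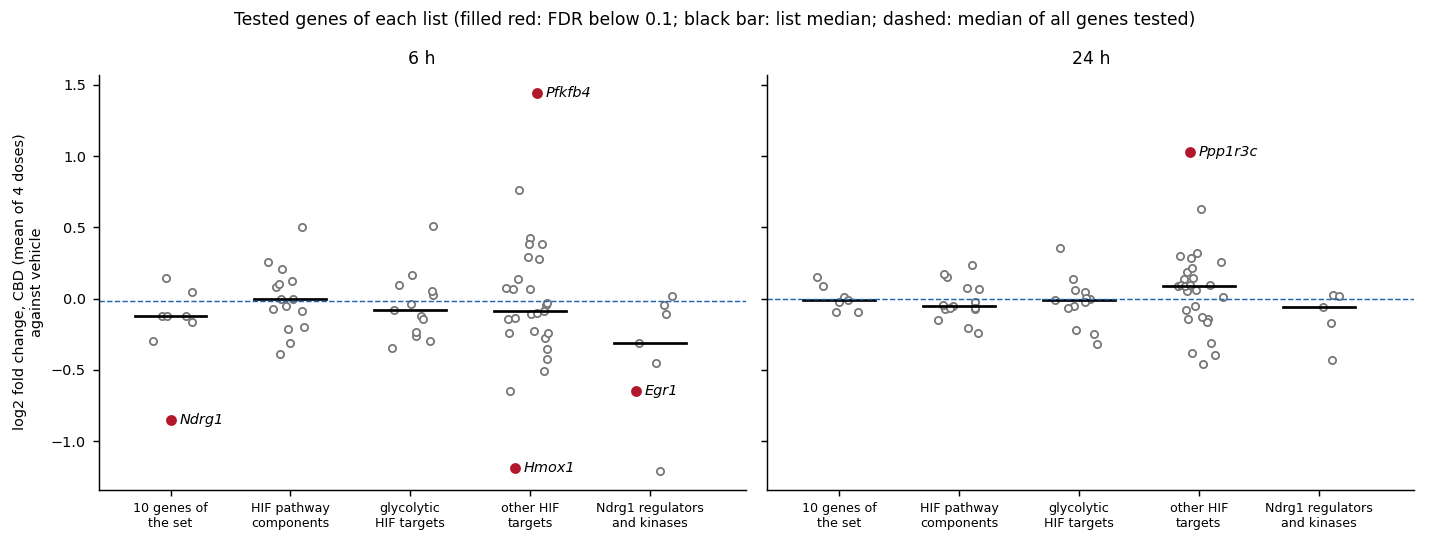
Log2 fold change of the mean of 4 doses against vehicle (vertical axis) for each tested gene of 5 lists (horizontal axis) at 6 h (left) and 24 h (right), with called genes filled red and named, a black bar for the list median and a dashed line for the median of all genes. The medians of the HIF lists lie between -0.12 and 0.09, and the called HIF targets Hmox1 (-1.19) and Pfkfb4 (1.44) lie on opposite sides of 0 at 6 h.

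None of the 3 paralogues of Ndrg1 was called at 6 h by edgeR, and 1 of them, Ndrg2, had an unadjusted p below 0.05. Ndrg3 was at 27.2 to 39.5 CPM in 6 h vehicle and 23.5 to 41.8 CPM in CBD (-0.08, SE 0.191, FDR 0.935), and Ndrg4 was at -0.03 with an SE of 0.45 (FDR 0.993), too wide to exclude a fall like that of Ndrg1. Ndrg2, at 0 to 1.11 CPM in vehicle and 0.795 to 4.37 CPM in CBD, had an estimate of 2.47 that did not pass (SE 0.855, FDR 0.261). Of 7 regulators and kinases of Ndrg1, 1 fell at 6 h, where 0.749% of all genes were called. Egr1, an immediate-early transcription factor, was at 240 to 481 CPM in vehicle and 166 to 261 CPM in CBD, overlapping, with -0.65 (SE 0.147, FDR 0.0437). Without A3 Egr1 was at -0.27 and lost its call (FDR 0.385). Sgk1, a kinase that phosphorylates NDRG1, was at -0.45 (SE 0.132, FDR 0.162), and the repressor Myc was at -1.21 (SE 0.485, FDR 0.36) on 136 reads at 6 h. None of the 5 of these that were tested at 24 h was called.

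The genes whose group means over the 10 groups were most like those of Ndrg1 were none of the HIF targets followed here. Likeness was the root mean square difference of the centred group means of log2 CPM among 12789 genes, and Ndrg1 itself had a root mean square of 0.256 around its mean. The 5 closest were Sqstm1 (0.094), a selective autophagy receptor, Egr1 (0.12), Tgfa (0.128), a ligand of the epidermal growth factor receptor, Ikbkg (0.133), a subunit of the IKK complex, and Edil3 (0.139), a matrix protein. Sqstm1 averaged 597 CPM in 6 h vehicle, 374 to 387 CPM in the CBD groups of 6 h and 444 to 476 CPM at 24 h. Tgfa and Edil3 were weakly counted, with group means of 3.13 to 5.41 and 1.76 to 4.19 CPM. All of these genes were highest in 6 h vehicle, but group means do not show which libraries set that level. Without vehicle library A3 the 6 h fall of Egr1 shrank to -0.27, whereas that of Ndrg1 grew to -1.03. Of the members, Egln1 came closest at rank 2296 (0.283) and Vegfa was farthest at rank 11170 (0.568), both with larger differences than a flat profile would have.

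**Figure D4:**
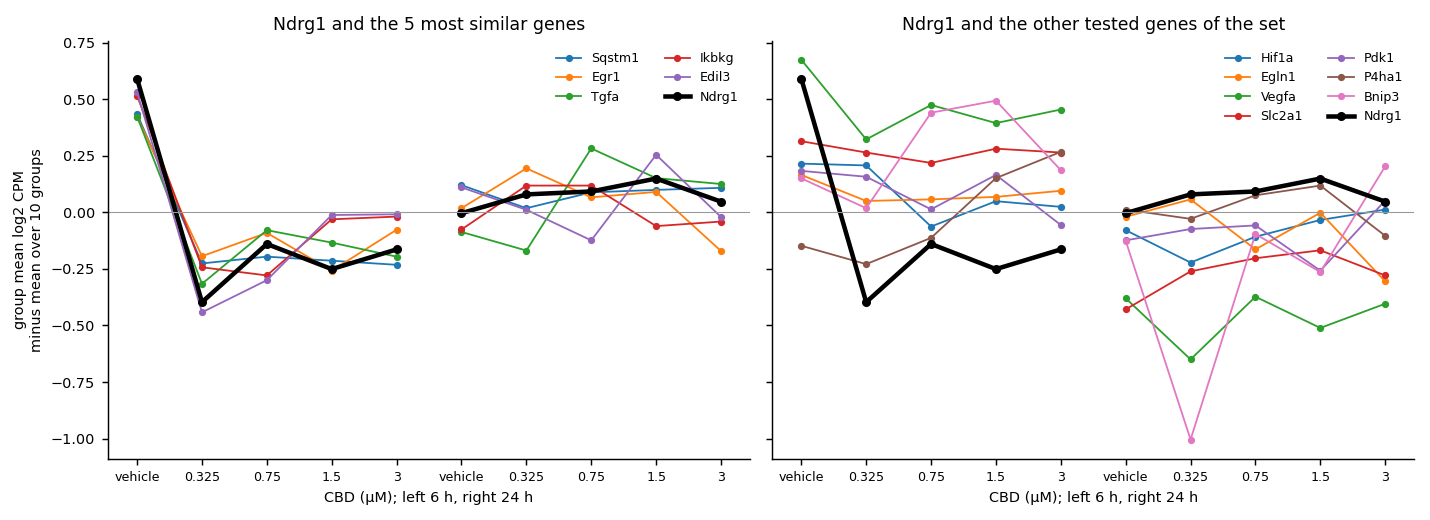
Mean log2 CPM of each group minus the mean over the 10 groups (vertical axis) for Ndrg1 (black) with its 5 most similar genes (left) and with the other 7 tested genes of the set (right), by CBD dose in µM at 6 h and 24 h. Ndrg1 stands at 0.59 in 6 h vehicle and between -0.40 and -0.14 in the 6 h CBD groups, while Vegfa and Slc2a1 stay above 0 in all 6 h groups and below 0 in all 24 h groups.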

How the data were processed

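The authors prepared QuantSeq 3′ libraries from mHypoA-2/12 cells, mapped the trimmed reads to GRCm39 with STAR 2.7.5c and counted them per Ensembl gene with HTSeq 1.99.2. They deposited raw counts, 1 file per library with no replicates pooled. Groups came from the treatment label of each sample. The 5 summary lines of each file were left out, and gene names and coordinates were taken from GENCODE M21 (GRCm38), which is older than the build of the counts (51948 of 56941 identifiers matched). For Aldoa, which had 2 identifiers, the better counted was used.

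The counts were filtered with filterByExpr, scaled by TMM and tested with the quasi-likelihood test of edgeR 4.0.16 (limma 3.58.1, R 4.3.3), in 1 fit of 15 libraries per time and 1 of all 30 for contrasts of the times, at an FDR below 0.1 over all genes tested. Intervals are 95%. Printed CPM are on the TMM scale of the 30 libraries. Two-sided tests compared each dose and the mean of 4 doses with vehicle, the slope over log2 dose, any difference among doses, and the difference between the times. The contrast of CBD at 24 h with CBD at 6 h was added after the values were seen. The method was tested on simulated counts.

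The members and lists were chosen with earlier results of these data known, among them the fall of Ndrg1 at 6 h, which is therefore not independent support. Named were all members, genes of the other lists called for the mean of doses or the difference between times, genes with no reads, the extremes of each list, and the 5 genes most like Ndrg1 (prior count 2). Other genes in the text (Epas1, Ldha, Gpi1, Sgk1, Myc and those with unadjusted p below 0.05) were chosen after their values were seen, and 1 gene of the other HIF targets is not reported by name here. Alternatives were DESeq2 1.42.0, RLE scaling, other filters, no mitochondrial genes, other sets of libraries, a covariate for reads outside genes, and each library left out.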

Additional observations from a re-analysis of the deposited data

Results flagged for a closer look

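The effect of CBD on Ndrg1 differed between the times: the log2 difference from vehicle at 24 h minus that at 6 h was 0.944 (FDR 0.0331 by edgeR over 12790 genes). All 12 CBD libraries were below all 3 vehicle libraries at 6 h, and the groups overlapped at 24 h. In the same contrast none of the other 7 tested members was called. The vehicle level of Ndrg1 also differed between the times (133 CPM at 6 h and 86.2 CPM at 24 h), so the difference combines a vehicle group that was lower at 24 h with CBD groups that were higher there. What lies behind either was not tested.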

How the results depend on the processing

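The fall of Ndrg1 at 6 h for the mean of the doses was negative under all 22 alternatives (-1.03 to -0.62) and called in 21, all but the fit without vehicle library A2. Its difference between the times was positive under all 36 (0.72 to 1.13) and called in 33. The count of members called at 6 h was otherwise sensitive to the setting, and in every case the gene concerned was Ndrg1. At 0.325 µM, 6 h, the count of 1 became 0 when only the groups compared were fitted. At 0.75 µM and at 3 µM, 6 h, the count of 0 became 1 with DESeq2, without the low-count filter, with all 30 libraries in the fit and with the covariate for reads outside genes. At 1.5 µM, 6 h, it became 1 with the same settings and with at least 10 reads required in every library.

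Other HIF targets called for the mean of the doses at 6 h numbered 2, and 4 with no filter or with the covariate but 1 with at least 10 reads in every library, a filter that Pfkfb4 did not pass. At 24 h the count of 1 became 0 with all 30 libraries and with the covariate. When each library was left out in turn, the members called ranged from 0 to 1 at each of the 4 doses of 6 h, for the mean of the doses at 6 h, for the difference between the times and for the slope at 24 h. In the slope the member was Bnip3, which passed the filter and the threshold without library A17 of 3 µM. Other HIF targets called ranged from 1 to 3 at 6 h and from 0 to 1 at 24 h, and glycolytic targets from 0 to 1 at 6 h.

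The libraries behind these changes at the single doses of 6 h were A2, A14 and A15 at 0.325 µM (0 called without each), A3 at the higher doses, and also A12, A13, A14 and A15 at 1.5 µM (1 called without each). For the other HIF targets they were A2 at 6 h (1 called) and A24, A29 and A30 at 24 h (0 called). Of all genes, 90 were called for the mean of the doses at 6 h (128 with DESeq2, 263 with no filter, 163 with all 30 libraries, 329 with the covariate, 51 without A2, 304 without A3). At 24 h 13 were called (30 with DESeq2, 46 with no filter, 7 with all 30 libraries, 0 with the covariate, 1 without A30, 47 without A16), and for the difference between the times 30 (48 with DESeq2, 87 with no filter, 2 without A29). At the single doses 0 to 322 genes were called at 6 h and 0 to 288 at 24 h over all settings, and the slope at 24 h called 0 (with the covariate) to 1394 (without A17) around the 379 reported. The cause of these changes was not tested. The fit of only the groups compared is the reported fit for the mean of the doses, which uses all 5 groups of a time. For the tests among doses a fit of only the 12 CBD libraries was added after the values were seen, and it called 0 members at either time. No paired analysis was possible because replicate numbers are not shared by any of the groups. The depth of 1839621 to 4420675 reads leaves Egln3, Ankrd37 and, at 24 h, Bnip3 without a test.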
